A study of Rattus norvegicus with 4 samples.

Results

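The genes described here encode the proteins of the cytosolic ribosome and their close relatives. They were taken from the deposited count table by symbol alone: an Rpl or Rps symbol with a number and at most 2 further characters of set kinds, the stalk genes Rplp0, Rplp1 and Rplp2, and Rps27a and Rpsa, leaving out the Rps6k kinases. The rule found 86 of the 24005 rows, 34 with a small subunit symbol and 52 with a large subunit symbol, and it used no measured value. Of these, 84 had enough counts for the test across genes, and Rpl8 and Rpl30l1 did not. The symbols also take in relatives such as Rpl3l, Rpl10l, Rpl22l1, Rpl39l and Rps27l. RefSeq lists one row, Rps10l1, as a pseudogene. Fau, Rack1 and Rpl36al, which also encode ribosomal proteins, fall outside the rule and are given apart.

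Messenger RNA selected by its polyA tail was sequenced from rat cartilage. The animals were males of the outbred Sprague Dawley strain, weighed 140 to 230 g and were 8 to 12 weeks old. There were 2 control libraries, labelled healthy, and 2 osteoarthritis libraries, which also carry the treatment label XGS (Xiaogu San, a herbal preparation). The title and design text name monosodium iodoacetate, an inhibitor of glycolysis, as the agent that induced osteoarthritis. No untreated osteoarthritis library was analysed here, so disease and preparation cannot be told apart. The design text speaks of normal mice, while every sample is labelled rat. A species difference between the groups was not tested. The labels do not say whether separate animals gave the libraries, so p-values reflect only the spread between these samples, possibly a technical one.

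Each cytosolic ribosome has a small subunit, which reads the messenger RNA, and a large subunit, which joins amino acids. Their proteins are made in matched amounts, and ribosomal protein messenger RNAs are among the most abundant and shortest of a cell. In mammals most of them start with a C followed by a run of pyrimidines, the terminal oligopyrimidine tract. This tract lets the kinase mTOR and the RNA-binding protein Larp1 control how much of the messenger RNA is translated or stored.

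The start of the transcript was searched for this tract, a feature that the naming rule did not use. The windows below are from RefSeq, build GRCr8, and run from 10 bases before the annotated start to 20 bases from it on, 5′ to 3′. Capitals mark a tract, defined as a C followed by at least 4 bases that are each C or T, starting within 10 bases on either side of the annotated start. Rps15, Rplp0 and Rpl41 are among the most abundant members per length, Rps10, Rps21, Rps27 and Rpl37 had small unadjusted p-values, and Rpl22 is shown with its relative Rpl22l1.
Rps15, chr7:10068096-10068125, minus strand: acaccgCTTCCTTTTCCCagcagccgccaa
Rplp0, chr12:46718371-46718400, minus strand: caccgcaCTTCTCTCgccaggcgtcctcat
Rps10, chr20:5700725-5700754, minus strand: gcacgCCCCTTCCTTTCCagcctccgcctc
Rps21, chr3:187724028-187724057, plus strand: agccaCTTCCTTTCTgtgttctccgtagac
Rps27, chr2:177964587-177964616, minus strand: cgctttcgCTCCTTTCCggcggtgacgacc
Rpl37, chr2:55942935-55942964, plus strand: ggcgtaCTTTCTCTTCCggtctctttggcc
Rpl22, chr5:168117951-168117980, plus strand: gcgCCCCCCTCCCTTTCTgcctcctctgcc
Rpl22l1, chr2:113683186-113683215, plus strand: gtggatatccggttccgagttgcgcagcgc
Rpl41, chr7:1563478-1563507, minus strand: ctcggaagtgacgacaccaagcacgccatt

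Of the members, 68 had a RefSeq promoter, with 69 entries, and 18 did not. A tract was found in 50 of the 69 entries, 72.5%, against 28.9% of all 33469 promoters in the table. It was found in 29.1% of the entries of other tested genes and in 36.9% of those of mitochondrial ribosomal proteins. The windows of Rpl22l1 and Rpl41 hold no such tract, which says only that these letters are not in that stretch of the annotation. The letters CTTCCG, searched on both strands over the 100 bases from 65 before the start, were in 36.2% of member entries and 8.75% of all promoters. They may overlap the tract. They were in 14.8% of the entries of other tested genes and in 40.0% of those of mitochondrial ribosomal proteins.

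The libraries held 24492412 to 28270779 counts. Genes with a count numbered 14770 and 15739 in control, against 19272 and 17725 in osteoarthritis. Genes with a single count numbered 126 and 190 in control, against 977 and 1219 in osteoarthritis. The source of this difference between the groups was not tested. Of 15 listed chondrocyte markers, 14 had counts in every library, and the other had no row. Matn1 had only 9 and 3 counts in the osteoarthritis libraries. The erythroid and B lineage markers with a row also had counts in every library, so this does not identify the tissue. Values in CPM below are counts scaled to a common library size with TMM factors. The summed chondrocyte list was at 24856 and 37171 CPM in control, against 4321 and 10612 CPM in osteoarthritis. Of its 14 tested markers, 9 lay below both controls and 0 above both, against 26.5% and 30.0% of all genes tested. Marrow and blood cell lists stood further apart. Erythroid markers summed to 98040 and 106200 CPM against 1369.8 and 4939.8 CPM, and neutrophil markers to 7668 and 12019 CPM against 122 and 633 CPM. B lineage markers summed to 513 and 711 CPM against 32.7 and 40.5 CPM, and cell division genes to 893 and 1244 CPM against 145 and 331 CPM. The adipocyte sum overlapped, with 1611 and 656 CPM in control, against 8691 and 116 CPM in osteoarthritis, as did the tendon and ligament sum, with 2472 and 2469 against 352 and 7523 CPM. No listed marker with a row was at 0 in all 4 libraries. The part of these cell types in the results below was not tested, and in bulk samples fewer cells of a type and less RNA per cell cannot be told apart.

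Nearly every ribosomal protein gene had lower counts in osteoarthritis than in control, while a fit with length offsets, described further on, put their median difference near 0. Together the members took 4.96% and 5.85% of all counts in the control libraries. They took 3.44% and 1.94% in the osteoarthritis libraries. Both osteoarthritis shares lay below both control shares, and the second osteoarthritis library had the lowest. The group means were 5.40% ± 0.627 and 2.69% ± 1.06 (SD, n = 2), a ratio of 2.01. Wilson 95% intervals covered counting error only and were narrow, from 4.95% to 4.97% in the first control library and from 1.94% to 1.95% in the second osteoarthritis library. An exact permutation test of 2 against 2 cannot go below p = 0.333. As a share of the summed FPKM, which divides counts by gene length, the members stood at 9.54% and 11.01% in control and 9.49% and 6.83% in osteoarthritis. On this share the first osteoarthritis library was almost level with the first control library. The sum it is taken from also holds the globin genes, with Hba1 at 110370 and 123250 FPKM in control, against 1970 and 5898 FPKM in osteoarthritis. The median FPKM of the tested members was 860 and 954 in control, against 618 and 332 in osteoarthritis, so both osteoarthritis libraries lay below both controls.

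**Figure D1:**
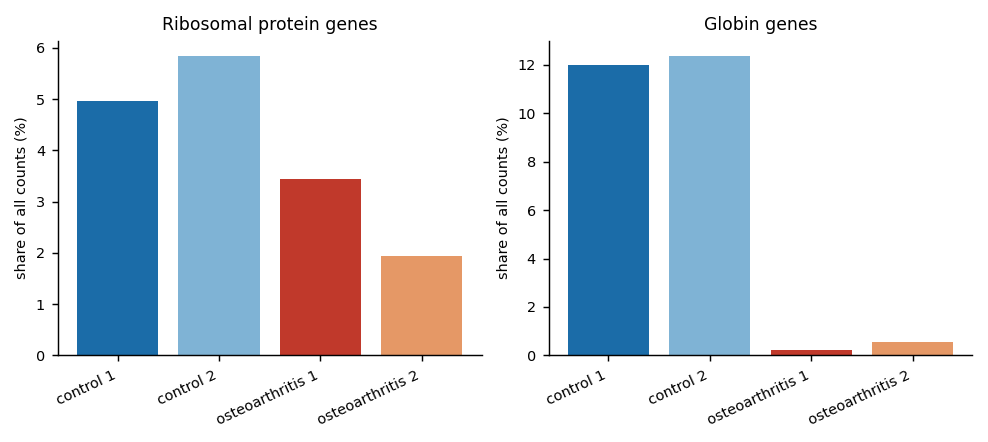
Share of all counts (%) taken by the 86 ribosomal protein genes (left) and by globin genes (right), one bar per library. The ribosomal protein share was 4.96% and 5.85% in control and 3.44% and 1.94% in osteoarthritis, and the globin share was 12.0% and 12.4% against 0.218% and 0.552%.

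Of the 84 tested members, 79 had both osteoarthritis libraries below both controls and 0 had both above. Over all genes tested these shares were 26.5% and 30.0%. Among the 2673 other genes nearest to a member in length they were 48.9% and 12.2%. The fitted log2 fold change, osteoarthritis over control, was negative for 83 members, against 44.9% of all genes, and positive for 1, Rpl10l. The members' median was −1.13, a level 2.20-fold lower, while the median of all genes tested was 0.15. The values lay close together, with 73 of the 84 between −1.6 and −0.7.

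No single member passed the test. With Benjamini-Hochberg adjustment over 15282 genes, edgeR's quasi-likelihood test called 0 members, with a background of 0% of genes, and the smallest adjusted p of a member was 0.0876. At an unadjusted p under 0.05, 42 members were lower (background 11.2%) and 0 higher (background 12.2%). DESeq2 called 42 members lower (background 8.26%, and 17.3% of the genes nearest in length) and 0 higher (background 7.24%). edgeR's likelihood ratio test called 8 lower (background 6.40%) and 0 higher (background 6.31%), and limma-voom called 0 (background 0%). Without the first osteoarthritis library edgeR's quasi-likelihood test called 17 lower (background 6.21%). Without the second it called 3 lower, Rpl3l, Rplp2 and Rpl39l (background 4.76%), without either control 0, and without the filter on low counts 3 lower (background 3.72%).

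The members also varied together between libraries of the same group. In the second control library 73 of 84 were higher than in the first, by a median log2 ratio of 0.36. In the second osteoarthritis library 72 were lower than in the first, with a median log2 ratio of −0.39. Over all genes these medians were 0.01 and 0.03. Relative to the mean of the controls, the members' median log2 level was −0.19 and 0.17 in the controls, against −0.95 and −1.32 in osteoarthritis. The gap between groups was wider than either gap within a group. Each osteoarthritis library alone lay below both controls for 80 and 81 members respectively (background 35.7% and 36.6%).

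**Figure D2:**
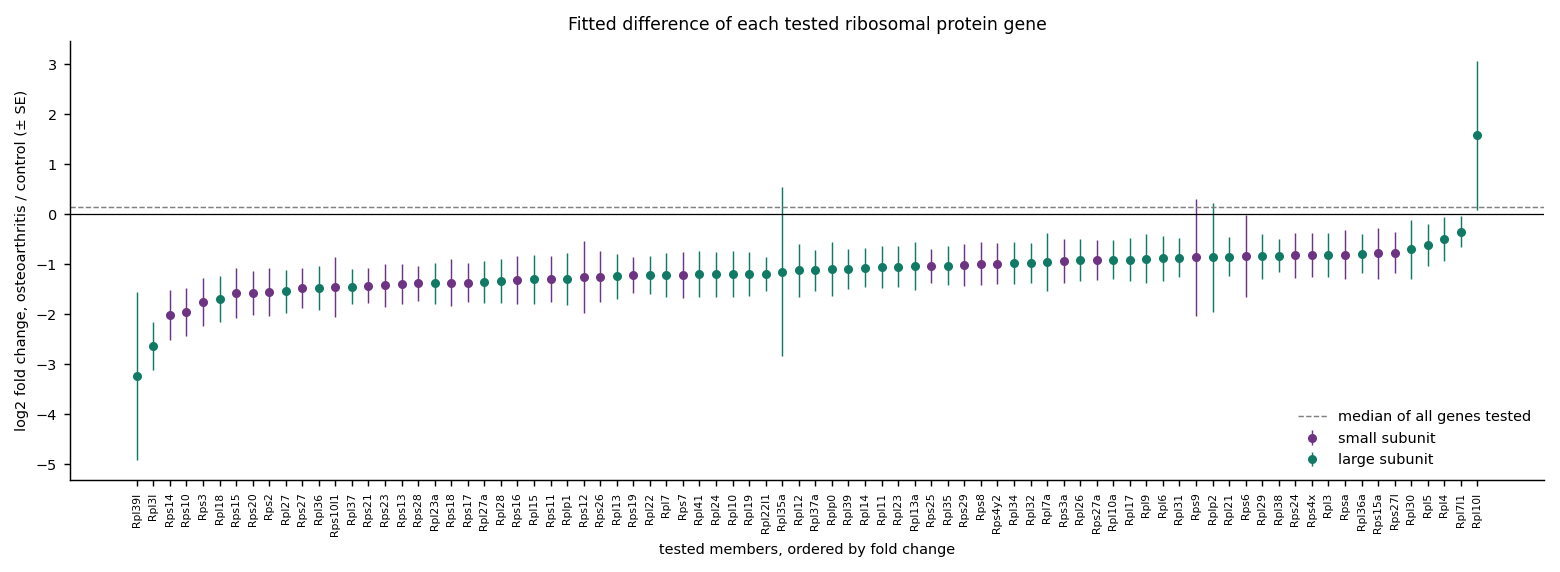
Fitted log2 fold change (osteoarthritis over control) with its standard error for 82 of the 84 tested members, ordered by value and coloured by subunit, with the median of all genes as a dashed line. All but Rpl10l lie below 0 and 73 of all 84 lie between −1.6 and −0.7, whereas with length offsets 43 were positive.

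Without length offsets the small subunit members all had a negative fold change, from −2.01 to −0.77, with a median of −1.28. Of the 34, 33 lay below both controls (background 26.5%, and 48.9% of the genes nearest in length). Rps14, which lines the path of the messenger RNA, had the lowest value of them. It was at 657 and 1058 CPM in the controls, against 262 and 163 CPM in osteoarthritis. Both osteoarthritis libraries lay well below the controls, with a log2 fold change of −2.01 ± 0.51 (SE) and an adjusted p of 0.121 by edgeR's quasi-likelihood test. Rps10, near the site where the messenger RNA enters, was at 529 and 909 CPM in the controls, against 210.0 and 159.7 CPM in osteoarthritis, with a log2 fold change of −1.96 ± 0.48 (SE). Rps3, a protein of the entry channel that also acts in DNA repair, was at 774 and 1202 CPM in the controls, against 334 and 252 CPM in osteoarthritis, with a log2 fold change of −1.75 ± 0.47 (SE). In Rps10 and Rps3 too the groups were apart, and the second osteoarthritis library was the lowest of the 4.

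Several of the smallest unadjusted p-values belonged to short small subunit genes whose 2 osteoarthritis libraries nearly matched. Rps28 was at 149 and 216 CPM in control, against 70.0 and 70.0 CPM in osteoarthritis. Rps27, a zinc finger protein, was at 178 and 288 CPM in control, against 77.5 and 89.9 CPM in osteoarthritis. Rps21 was at 130.5 and 189 CPM in control, against 64.1 and 54.7 CPM in osteoarthritis. In each of them the osteoarthritis libraries lay far below the lower control, though with length offsets their log2 fold changes turned to 0.44, 0.36 and 0.36. Without offsets they were −1.38 ± 0.36 (SE), −1.48 ± 0.40 (SE) and −1.43 ± 0.36 (SE), with adjusted p-values of 0.125, 0.131 and 0.121 by edgeR's quasi-likelihood test.

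Rps19, a gene mutated in Diamond-Blackfan anaemia, in which red cell precursors fail, was at 282 and 338 CPM in the controls, against 139 and 128 CPM in osteoarthritis. The groups did not overlap, with a log2 fold change of −1.22 ± 0.35 (SE), which turned to 0.15 with length offsets. Rps20 had a fold change of −1.57 and Rps29 of −1.02, on the log2 scale, and with length offsets Rps29 turned to 0.84. Rps27a, which is made as a fusion with ubiquitin, was at 479.9 and 336 CPM in control, against 219.8 and 212 CPM in osteoarthritis. Rpsa, also known as a laminin receptor, was at 1544 and 2018 CPM in control, against 1164 and 873 CPM in osteoarthritis. Both were lower in each osteoarthritis library than in either control, with log2 fold changes of −0.92 and −0.81. Rps12 was the small subunit gene whose groups overlapped. It was at 315 and 1115 CPM in the controls, against 378 and 221 CPM in osteoarthritis. The first osteoarthritis library lay above the first control, and the controls lay far apart from each other.

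The large subunit members had a median log2 fold change of −1.08, also without length offsets, and a range from −3.23 to 1.58. Of the 50 tested, 46 lay below both controls (background 26.5%, and 48.9% of the genes nearest in length). The difference between the subunits' medians was not tested. The stalk proteins Rplp0, Rplp1 and Rplp2 recruit the elongation factors. Rplp0 was at 2110.1 and 3426 CPM in the controls, against 1394 and 1199 CPM in osteoarthritis, and Rplp1 at 1333 and 1510.1 CPM in control, against 761 and 397 CPM in osteoarthritis. For both the groups were apart, with log2 fold changes of −1.09 ± 0.54 (SE) and −1.30 ± 0.52 (SE). With length offsets Rplp1 turned to 0.092. Rplp2 did not share this pattern. It was at 167 and 137 CPM in the controls, against 11.4 and 156 CPM in osteoarthritis. The first osteoarthritis library held 337 counts of it, while the second lay between the controls, so the log2 fold change of −0.86 ± 1.09 (SE) rests on the first. Without that library it was −0.01.

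Rpl37 was the large subunit gene of high level with the smallest unadjusted p. It was at 213 and 276 CPM in the controls, against 88.4 and 90.6 CPM in osteoarthritis. The osteoarthritis libraries nearly matched and lay far below both controls, with a log2 fold change of −1.45 ± 0.35 (SE) and an adjusted p of 0.116 by edgeR's quasi-likelihood test. With length offsets it turned to 0.31. Rpl5 and Rpl11, which together with a short ribosomal RNA bind and block Mdm2 when ribosome assembly fails, had log2 fold changes of −0.61 and −1.05. Rpl5 was at 774 and 675 CPM in control, against 553 and 394 CPM in osteoarthritis, and Rpl11 at 593 and 735 CPM in control, against 368 and 274 CPM in osteoarthritis. Neither gene's groups overlapped, and with length offsets Rpl5 was at 0.027. Rpl4, whose long loop lines the exit tunnel, had the fold change nearest 0 among members with a mean control level of at least 100 FPKM. It was at 1076 and 974 CPM in control, against 833 and 624 CPM in osteoarthritis, with a log2 fold change of −0.49 ± 0.44 (SE).

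Rpl13a, which also silences some inflammatory messenger RNAs, had a log2 fold change of −1.04. Rpl26, which binds the messenger RNA of p53, had −0.92. Rpl38, linked to the translation of Hox messenger RNAs, had −0.83. These 3 lay below both controls in each osteoarthritis library, and with length offsets Rpl26 turned to 0.39 and Rpl38 to 1.03. Rpl30, at 51.5 and 168 CPM in the controls, against 73.9 and 60.6 CPM in osteoarthritis, had its groups overlapping under its own symbol. Its first control was the lowest of the 4 libraries and its second control the highest. Without the second control its log2 fold change was 0.39, against −0.70 with all libraries. Rows that RefSeq names as its copies hold 52.1% of the summed counts. Summed with them, Rpl30 was at 212 and 283 CPM in control, against 121 and 116.8 CPM in osteoarthritis, with the groups apart and a log2 fold change of −1.06 ± 0.35 (SE).

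Several members have a close paralog. Rpl3 is the general form, and Rpl3l replaces it in striated muscle. Rpl3 was at 917 and 1073 CPM in control, against 650.2 and 481 CPM in osteoarthritis, and Rpl3l at 24.005 and 18.9 CPM in control, against 3.80 and 3.07 CPM in osteoarthritis. The groups of Rpl3l were far apart, with a log2 fold change of −2.64 ± 0.48 (SE) against −0.82 ± 0.44 (SE) for Rpl3. The adjusted p of Rpl3l by edgeR's quasi-likelihood test, 0.0876, was the smallest of all tested members. The skeletal muscle list summed to 2479 and 129 CPM in control, against 138 and 362 CPM in osteoarthritis, so it overlapped between groups. In the second control, where that sum was lowest, Rpl3l stood at 18.9 CPM. The part of muscle in its value was not tested.

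Rpl22 and Rpl22l1, which can each enter the ribosome, had log2 fold changes of −1.21 and −1.19, with a tract found at the start of Rpl22 and not of Rpl22l1. Rpl22 was at 206 and 306 CPM in control, against 118 and 103 CPM in osteoarthritis, and Rpl22l1 at 52.9 and 71.3 CPM in control, against 30.5 and 23.8 CPM in osteoarthritis, with groups apart in both. Rps27 and Rps27l had −1.48 and −0.77. Rps27l, a p53 target, was at 32.6 and 50.2 CPM in control, against 18.5 and 30.2 CPM in osteoarthritis, with groups apart. Rps4x and its relative Rps4y2 had −0.82 and −0.99. Rpl7 and the assembly factor Rpl7l1 had −1.21 and −0.35. The difference within each pair was not tested, and with length offsets Rpl22, Rpl22l1, Rps27 and Rps27l turned to 0.33, 0.10, 0.36 and 0.36.

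Rpl10 is carried on the X chromosome, and Rpl10l is known as its testis-expressed copy. Rpl10 was at 1019.7 and 1469.5 CPM in control, against 584 and 502 CPM in osteoarthritis, below both controls in each osteoarthritis library. Rpl10l was at 0.317 and 1.07 CPM in control, against 0.678 and 3.50 CPM in osteoarthritis, so its groups overlapped. Its log2 fold change of 1.58 ± 1.49 (SE) was the single positive value of the tested members, and it was −0.03 without the second osteoarthritis library. Rpl39 was at 184 and 289 CPM in control, against 99.2 and 122 CPM in osteoarthritis, and its testis-enriched relative Rpl39l at 4.15 and 13.2 CPM in control, against 0.0339 and 1.81 CPM in osteoarthritis. Rpl39l had the lowest fold change of the tested members, −3.23 ± 1.68 (SE), with 1 count in the first osteoarthritis library. Rpl39 had −1.09 ± 0.40 (SE), with groups apart, and turned to 0.82 with length offsets.

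Levels of different genes were compared per length, in FPKM. The 74 tested members with a mean control level of at least 100 FPKM spanned 105 to 2760 FPKM, a 26.2-fold range, with a median of 1066 FPKM in control and 532 FPKM in osteoarthritis. Their log2 fold changes ran from −2.01 to −0.49, with a median of −1.19. Rplp1 had the highest mean control level. It was at 2713 and 2808 FPKM in the controls, against 1846 and 712 FPKM in osteoarthritis. Next came Rps15 with 2108 and 3105 FPKM in control, against 1284 and 678 FPKM in osteoarthritis, and Rplp0 with 1948 and 2891 FPKM in control, against 1536 and 976 FPKM in osteoarthritis. Rpl41, Rps16, Rps29 and Rpl13 were also among the 8 highest. The control values of Rplp1 lay within the control range of Rps15, so the order of these neighbours does not exceed their spread. In the second osteoarthritis library Rps29, at 1066 FPKM, was the highest member and Rplp1 was at 712 FPKM.

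**Figure D3:**
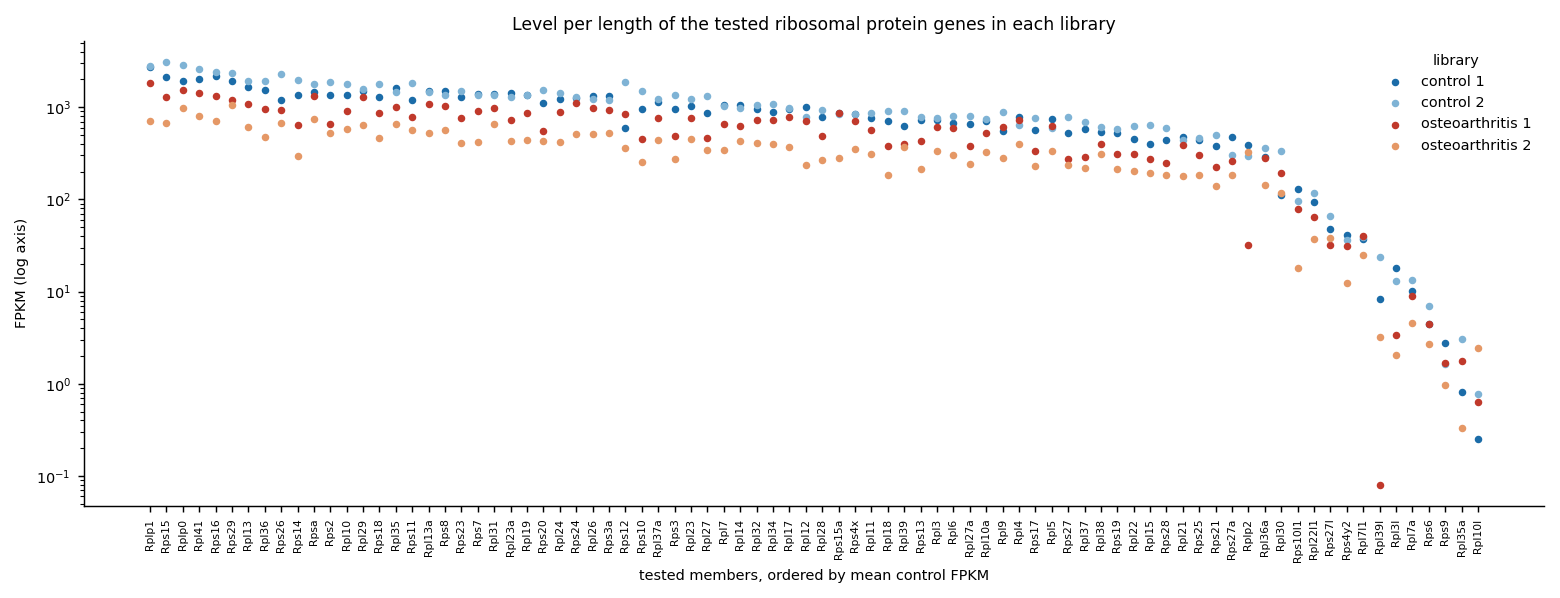
Level per length (FPKM, log axis) of 82 of the 84 tested members in each of the 4 libraries, ordered by mean control level. Most members lie between 100 and 2760 FPKM in control with the osteoarthritis points beneath, and 10 members with under 100 FPKM in control stand at the right.

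The 10 tested members under 100 FPKM were Rpl3l, Rpl7l1, Rpl35a, Rps4y2, Rpl7a, Rpl39l, Rps27l, Rpl10l, Rps6 and Rps9. Among them Rps6, the kinase target of the small subunit, and Rps9, Rpl7a and Rpl35a encode core ribosomal proteins. Rps6 had 101 and 159 counts in control and 87 and 56 counts in osteoarthritis, and Rpl7a had 241 and 321 counts against 187 and 101. Rpl8, also a core protein, had 0 and 1 counts in control and 0 and 0 in osteoarthritis. A count of 0 allows up to 0.106 CPM in the first control library and up to 0.102 and 0.130 CPM in the osteoarthritis libraries (3 counts on the TMM scale, counting error only). These low values describe rows of the count table, and how reads were shared among near-identical copies is not given in the sources used here.

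The table also holds 69 rows under locus identifiers that RefSeq names as a member or as a copy of one, for 41 of the members, and 62 of these rows had counts. Their counts came to 3.84% and 2.84% of the members' counts in control and 2.50% and 2.58% in osteoarthritis. For 4 members, Rpl8, Rps9, Rpl35a and Rpl30, more than 50% of the summed counts lay in such rows, and for 9 more than 10%. Values of these genes are therefore uncertain. Rps9 had 66 and 39 counts in control and 35 and 21 in osteoarthritis under its symbol. A second row that RefSeq also calls Rps9, of the same implied length, had 7335 and 5466 counts in control and 349 and 2289 in osteoarthritis. Summed, Rps9 had a log2 fold change of −2.07 ± 0.93 (SE), with both osteoarthritis libraries below both controls.

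A row named as the pseudogene Rpl8-ps7 had 3043 and 1224 counts in control and 1436 and 1212 in osteoarthritis. Summed with it, Rpl8 had a log2 fold change of −0.61 ± 0.46 (SE), and its groups overlapped in CPM, at 107 and 47.0 in control and 48.7 and 52.3 in osteoarthritis. Rps14-ps7 had 13977 and 21564 counts in control and 6445 and 3128 in osteoarthritis. It was lower in the osteoarthritis libraries, like Rps14 itself, and the summed log2 fold change was −1.97. With all copies added to their members, the median log2 fold change was −1.17. Then 81 members lay below both controls (background 26.5%, from the fit without copies). edgeR's quasi-likelihood test again called 0 of them (background 0%).

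Ribosomal protein messenger RNAs are short, so the members were read beside other genes of their length. The length of each gene was the one implied by its count, its FPKM and the column total. Tested members ran from 296 to 2507 bases, with a median of 574.5, and 72 of them had 1000 bases or less. The median of all genes tested was 2560 bases. Other short genes were lower in osteoarthritis too. Their median log2 fold change was −3.03 from 200 to 400 bases, −1.25 from 400 to 600 and −0.87 from 600 to 800. It was −0.71 from 800 to 1000 bases and −0.39 from 1000 to 1500. In long genes the sign turned, with 0.46 from 3000 to 5000 bases and 0.86 above 5000.

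The members followed these values in part. In the 400 to 600 base class, 34 members had a median log2 fold change of −1.22, beside −1.25 for 281 other genes. There 31 members lay below both controls, and 70.8% of the other genes did. From 600 to 800 bases 17 members had a median of −1.07, beside −0.87 for 410 other genes, and from 800 to 1000 bases 12 had −0.97, beside −0.71 for 483. In the shortest class 9 members had −1.38, less far from 0 than the −3.03 of 94 other genes. The 10 members from 1000 to 1500 bases had −0.87, beside −0.39. Below both controls lay 17, 12 and 9 members of the classes from 600, 800 and 1000 bases, beside 59.0%, 53.8% and 41.8% of other genes. In the shortest class 8 members did, beside 78.7% of other genes. These are descriptions of one set of libraries, and the differences were not tested.

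**Figure D4:**
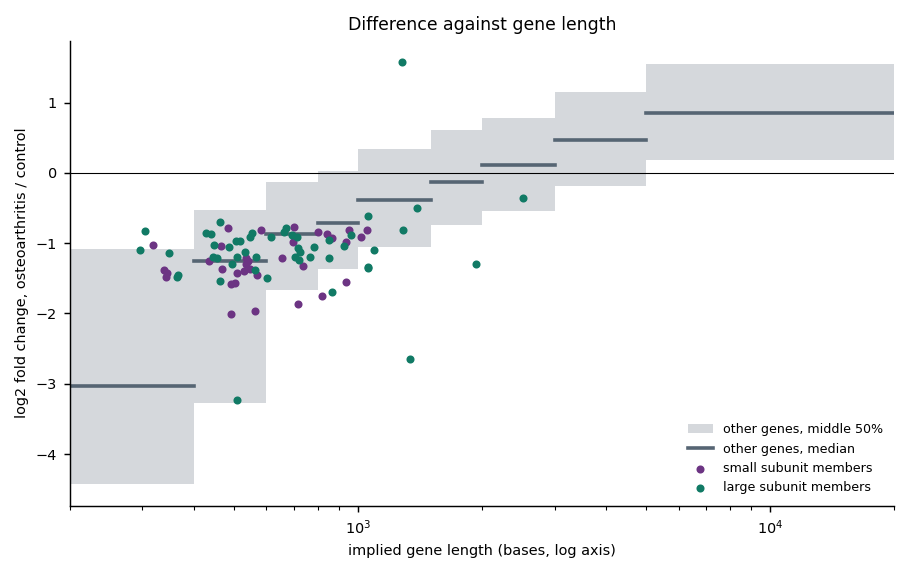
Log2 fold change (osteoarthritis over control) of the tested members against implied gene length (bases, log axis), with the median and the middle 50% of other genes in each length class. Other genes run from a median of −3.03 at 200 to 400 bases to 0.86 above 5000 bases, and the members lie along the short end.

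The library medians showed a gap of like size in other genes of 400 to 600 bases, at −0.16 and 0.15 in control and −1.05 and −1.31 in osteoarthritis. Each member was then set against the 200 tested other genes nearest to it in length. The median difference in log2 fold change was −0.17, with 55 members under the median of their neighbours and 29 over it. It depended on single libraries. It was −0.03 without the second osteoarthritis library, with 46 under and 38 over, −0.09 without the first, and −0.08 without the second control. Without the first control it was −0.17, with 57 under and 27 over. With the 200 genes nearest in length and level together it was −0.23, with 62 under and 22 over. The neighbour medians themselves had a median of −1.02. Of the 84 members, 73 lay in the middle 50% of their neighbours and 0 outside the middle 90%. The neighbours were far more scattered and far lower in level. The SD of log2 fold change was 0.516 among members and 2.11 among the 2673 distinct neighbours, and the median control level was 704 CPM against 15.96 CPM.

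The differences from genes of like length had a wide range, though no member lay outside the middle 90% of its neighbours. Rpl3l had the lowest difference, −2.22, followed by Rpl39l with −2.05 and Rpl15 with −1.24. Rpl15, a large subunit protein with an implied length of 1933 bases, was at 759 and 1358 CPM in the controls, against 438 and 419.7 CPM in osteoarthritis. Its groups were apart, with a log2 fold change of −1.30 ± 0.49 (SE). The highest differences were those of Rpl10l, 1.88, and of 3 of the shortest members, Rpl38 with 1.43, Rps29 with 1.35 and Rpl39 with 1.16. Rps29 and Rpl39 lay within the middle 50% of their neighbours. Rps29, with 318 bases, was at 614 and 802 CPM in the controls, against 317 and 381 CPM in osteoarthritis, and both osteoarthritis libraries lay below both controls.

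A fit with a smooth offset for length in each library brought the members' median close to 0. The members' median log2 fold change became 0.015, and that of all genes 0.08. With offsets 41 members were negative and 43 positive, 21 lay below both controls (background 25.5%) and 27 above both (background 25.9%). edgeR's quasi-likelihood test called 0 members (background 0%), with a smallest adjusted p of 0.128. At an unadjusted p under 0.05, 2 were lower (background 9.72%) and 1 higher (background 8.32%). The library medians relative to the control mean were −0.09 and 0.08 in control and 0.02 and −0.05 in osteoarthritis. The offsets remove any difference that goes with length, whatever its source, which was not tested.

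Within the offset fit the members did not all lie at 0. Rpl3l kept a low value, −2.21, beside −2.64 without offsets. Rpl15 had −1.21, Rpl18 −0.88 and Rps3 −0.87. On the other side were Rpl38 with 1.03, Rplp2 with 0.87, Rpl30 with 0.86, Rps29 with 0.84 and Rpl39 with 0.82, all of which were negative without offsets. Rps14 and Rps10 came to −0.58 and −0.64. No value of these passed edgeR's adjusted threshold.

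**Figure D5:**
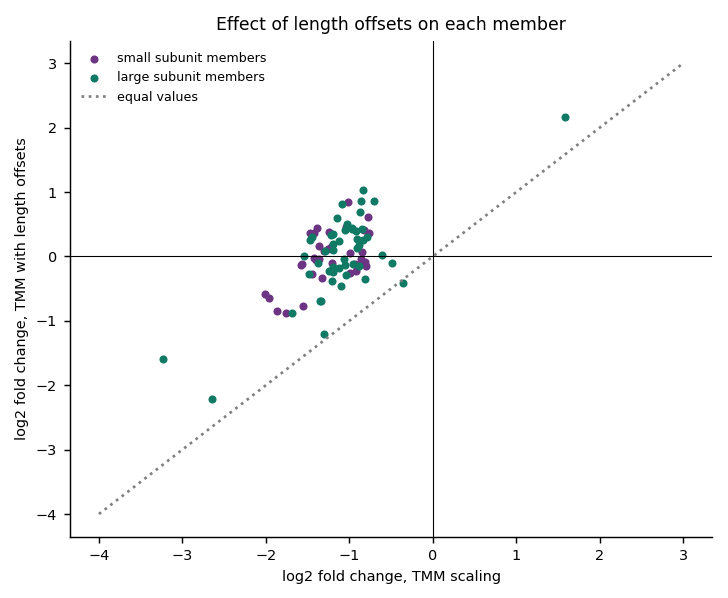
Log2 fold change of each tested member with length offsets (vertical) against that with TMM scaling alone (horizontal), with the line of equal values dotted. Points that lie at a median of −1.13 on the horizontal axis lie around 0.015 on the vertical axis, and Rpl3l stays low on both.

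Without length offsets other families of housekeeping genes were lower as well, in the order of their lengths. Nuclear genes for respiratory chain subunits, with a median length of 689 bases, had a median log2 fold change of −0.93 and 64 of 72 tested below both controls. Mitochondrial ribosomal proteins, with 998 bases, had −0.74 and 46 of 75. Proteasome subunits, with 1331 bases, had −0.46 and 27 of 37. Over all genes tested 26.5% lay below both controls. With length offsets the family medians were 0.04, −0.04 and −0.05, near the 0.015 of the cytosolic ribosomal proteins. With offsets 15, 16 and 9 genes of these families lay below both controls (background 25.5%). Above both controls lay 26, 20 and 4 (background 25.9%). The differences between families were not tested.

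Fau, Rack1 and Rpl36al, outside the naming rule, each had both osteoarthritis libraries below both controls (background 26.5%). Fau, which encodes a ubiquitin-like protein fused to a small subunit protein, was at 653 and 767 CPM in the controls, against 305 and 51.3 CPM in osteoarthritis, with a log2 fold change of −2.00 ± 0.87 (SE). The second osteoarthritis library stood far below the first, and both lay below the controls. Rack1, a scaffold on the small subunit, was at 749 and 1209 CPM in control, against 422 and 372 CPM in osteoarthritis, with −1.30 ± 0.46 (SE). Rpl36al, a relative of Rpl36a, had −0.63. With length offsets Fau had −0.72 and Rack1 −0.77, while Rpl36al turned to 0.64. Without offsets edgeR's quasi-likelihood test gave adjusted p-values of 0.246 for Fau and 0.187 for Rack1, and DESeq2 called Rack1 lower (background 8.26%).

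Without length offsets, translation factors had medians nearer 0 than the ribosomal proteins, a difference that was not tested. With offsets the medians were −0.07 for elongation and 0.07 for initiation genes, beside 0.015 for the ribosomal proteins. Of 12 elongation genes, 8 were negative and 4 positive, with a median log2 fold change of −0.36. edgeR's quasi-likelihood test called 0 of them, with 2 lower and 1 higher at an unadjusted p under 0.05 (background 11.2% and 12.2%), and DESeq2 called 1 lower and 1 higher (background 8.26% and 7.24%). Eef1a1, which carries transfer RNA to the ribosome and starts with a known pyrimidine tract, was at 3599 and 4669 CPM in the controls, against 3609 and 3399 CPM in osteoarthritis. The osteoarthritis libraries lay at the level of the lower control, with a log2 fold change of −0.24 ± 0.55 (SE). Eef2, which moves the ribosome along, had −0.11 ± 0.49 (SE), and its groups overlapped. Eef1b2, a shorter gene for an exchange factor of Eef1a1, was at 269.9 and 270.5 CPM in control, against 118 and 104 CPM in osteoarthritis. Its log2 fold change was −1.29 ± 0.34 (SE), and −0.59 with length offsets. Eif5a and Eif5a2, paralogs that help the ribosome past stalls, lay on opposite sides, with −1.22 and 1.82 and implied lengths of 1353 and 5252 bases. With length offsets Eif5a and Eif5a2 had −0.77 and 1.15.

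Of 37 initiation genes, 21 were negative and 16 positive, with a median of −0.06. The smallest unadjusted p-values among them were those of long genes that were higher in osteoarthritis. Eif5b, which joins the subunits, was at 45.7 and 47.2 CPM in control, against 211 and 151 CPM in osteoarthritis. Eif3a, a core of the initiation complex on the small subunit, was at 100.2 and 119 CPM in control, against 357 and 390.4 CPM in osteoarthritis. Eif4g3, a scaffold at the messenger RNA cap, was at 60.9 and 71.7 CPM in control, against 140.0 and 187 CPM in osteoarthritis. In all 3 the groups were apart, with log2 fold changes of 1.96, 1.77 and 1.30, and with length offsets of 1.52, 1.14 and 0.61. DESeq2 called 4 of the 37 higher, these 3 among them, and 0 lower (background 7.24% and 8.26%). edgeR's quasi-likelihood test called none of the 37, with 3 lower and 5 higher at an unadjusted p under 0.05 (background 11.2% and 12.2%).

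Of 45 tested ribosome assembly genes, 27 were negative and 18 positive, with a median of −0.27. Among them 20 lay below both controls and 13 above (background 26.5% and 30.0%). With length offsets the median was −0.11, with 11 below and 9 above (background 25.5% and 25.9%). Without offsets edgeR's quasi-likelihood test called 0, with 3 lower and 2 higher at an unadjusted p under 0.05 (background 11.2% and 12.2%). DESeq2 called 3 lower and 1 higher (background 8.26% and 7.24%). Fbl, the methylase of ribosomal RNA, had −1.32 ± 0.30 (SE) and Nop10 of the pseudouridine complex −1.36 ± 0.30 (SE). Imp3 of the small subunit processome had −1.19 ± 0.33 (SE). With length offsets Fbl, Nop10 and Imp3 had −0.75, −0.52 and −0.40. Of 16 tested genes of ribosomal RNA transcription, 8 were negative and 8 positive, with a median of −0.14. edgeR's quasi-likelihood test called 0 of these as well, with 2 lower and 2 higher at an unadjusted p under 0.05 (background 11.2% and 12.2%). Taf1d, a factor of RNA polymerase I, was at 9.75 and 13.0 CPM in control, against 91.9 and 48.0 CPM in osteoarthritis. Its log2 fold change was 2.62, and 2.53 with length offsets. The shared polymerase subunits Polr2e and Polr2f had −1.43 and −1.57, and −0.81 and −1.01 with length offsets.

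Of the 22 tested regulators of ribosomal protein messenger RNA, 14 were positive and 8 negative (background 44.9% negative), with a median of 0.21. Larp1, which holds messenger RNAs with the tract, was at 83.9 and 99.8 CPM in control, against 226 and 262 CPM in osteoarthritis, with a log2 fold change of 1.41 ± 0.34 (SE). Mtor, the kinase upstream of it, had 0.84 ± 0.31 (SE), and Tsc1, an inhibitor of that kinase complex, 1.29 ± 0.45 (SE). All 3 were higher in both osteoarthritis libraries than in either control. Of the 22, 8 lay above both controls and 2 below both (background 30.0% and 26.5%). edgeR's quasi-likelihood test called none of the 22, with 4 higher (background 12.2%) and 0 lower (background 11.2%) at an unadjusted p under 0.05. Of the 22, DESeq2 called 1 higher, Larp1 (background 7.24%), and 0 lower (background 8.26%). These genes are long, and with length offsets Larp1 had 0.64, Mtor −0.07 and Tsc1 0.40. Translation itself was not measured.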

How the data were processed

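PolyA RNA from cartilage was sequenced in 4 libraries, grouped by the disease state label into 2 control and 2 osteoarthritis. The submitters' processing notes name fastp, TopHat and the human build hg38. Versions, counter, annotation and strandedness were not given in the sources used here. Overlapping genes may therefore share reads. The authors deposited raw read counts per gene and FPKM values of the same counts. Implied length was the count divided by the product of FPKM and column total, scaled to bases. Depth was 24492412 to 28270779 counts per library. Without molecular identifiers named, intervals and floors cover counting error only.

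Counts were analysed with edgeR 4.0.16 (R 4.3.3): filterByExpr kept 15282 genes, with TMM scaling (factors 1.01 and 0.923 for control, 1.21 and 0.891 for osteoarthritis) and the two-sided quasi-likelihood F test, Benjamini-Hochberg adjustment over all genes and a threshold of 0.05. DESeq2 1.42.0, the likelihood ratio test, limma-voom (limma 3.58.1), library size and upper quartile scaling, scaling without globin genes, no filter, log2 FPKM with pseudocounts of 1 and 0.1, length offsets (lowess per library, span 0.3) and fits without each library were alternatives, and adding copies was chosen after seeing the data. Scripts were tested on simulated data. Each standard error (SE) was the absolute log2 fold change divided by the square root of the quasi-likelihood F statistic. Promoter windows and copy names came from RefSeq, GRCr8, which holds 84 of the 86 symbols as such and 2 as synonyms.

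Members, gene lists and tests were chosen with earlier results of these data known. Members were named by a rule: highest control FPKM, smallest p, extreme fold changes, extreme differences from genes of like length, and fixed names. Of each pathway list the 3 genes with the smallest p and some fixed names were named. Those not below both controls, those with copies, and Rpl18 were named after their values were seen. Beside the lists given in the results, macrophage markers had 7 of 10 below both controls and 1 above. Osteoblast markers had 5 of 8 below and 0 above, and endothelial markers 0 of 7 below and 3 above (background 26.5% and 30.0%). The osteoblast sum overlapped, with 8033 and 37406 CPM in control, against 20285 and 102960 CPM in osteoarthritis. In it Col1a1 was at 7108 and 33210 CPM in control, against 20226 and 102850 CPM in osteoarthritis. The snoRNA host list had 1 row and 0 tested genes. Some genes are not reported here by name.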

Additional observations from a re-analysis of the deposited data

How the results depend on the processing

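The members' median log2 fold change stayed between −1.38 and −0.95 under every other alternative run, but with length offsets it was 0.015. It was −0.98 with library size scaling and −1.21 with upper quartile scaling, where the median of all genes was 0.27 and 0.05 instead of 0.15. Relative to that median the members stood at −1.29 with TMM, −1.24 and −1.26. The number of members below both controls was 21 with length offsets, with 27 above (background 25.5% and 25.9%). edgeR's quasi-likelihood test called 0 members, DESeq2 called 42, the likelihood ratio test 8, and edgeR without a filter 3. Leaving out single libraries gave 0 to 17 calls, with 17 without the first and 3 without the second osteoarthritis library, on the assumption that a lone sample varies as the other group does. The difference from genes of like length ranged from −0.23, with genes matched on length and level, to −0.03, without the second osteoarthritis library.

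Among named members, length offsets turned the log2 fold change positive for Rpl22 (0.33), Rpl22l1 (0.10), Rpl26 (0.39), Rpl30 (0.86), Rpl37 (0.31), Rpl38 (1.03), Rpl39 (0.82), Rpl41 (0.35), Rpl5 (0.027), Rplp1 (0.092), Rplp2 (0.87), Rps19 (0.15), Rps21 (0.36), Rps27 (0.36), Rps27l (0.36), Rps28 (0.44), Rps29 (0.84) and Rps6 (0.069). Rpl10l was −0.035 without the second osteoarthritis library and 2.70 without the second control, and Rpl30 was 0.39 without the second control. The cause of these changes was not tested. No paired analysis was possible because the labels give no replicate numbers shared between the groups. With 2 libraries a group, depth limits only the members with few counts.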
